A study of Homo sapiens with 43 samples.

Results

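The genes described here are 36 genes of S phase and DNA replication, chosen by name for their role in copying the genome, out of 58780 genes in the deposited files. They comprise 5 transcription factors and cyclins (E2F1, E2F2, E2F8, CCNE1, CCNE2), 8 origin licensing genes (CDC6, CDT1, MCM2 to MCM7), 5 helicase activation genes (MCM10, CDC45, GINS1, GINS2, GINS3), and the sliding clamp with 4 clamp loader subunits (PCNA, RFC2 to RFC5). The others are 6 genes of priming, synthesis and fragment joining (POLA1, PRIM1, POLE, POLD1, FEN1, LIG1), 3 of deoxynucleotide supply (RRM1, RRM2, TYMS) and 4 of histone mRNA and chromatin replication (SLBP, UHRF1, CHAF1A, CHAF1B). All 36 were found in every library, and all 36 passed the filter on low counts in each experiment.

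Before S phase, ORC, CDC6 and CDT1 load the MCM ring, which is the core of the replicative helicase, onto origins. CDC45 and the GINS complex then join the ring and switch it on, primase and the polymerases copy both strands, and PCNA, loaded by the RFC complex, holds the polymerases on DNA. Most of these genes are classic targets of the E2F family, which is held back by RB in G1 and released when cyclin D and cyclin E kinases phosphorylate RB.

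Poly(A) RNA was sequenced from GM12878, a lymphoblastoid line made by transforming human B cells with Epstein-Barr virus, and from HepG2, a hepatocellular carcinoma line. In the stimulus panel GM12878 cells were given 25 ng/mL TNF, 10 ng/mL LPS, 50 U/mL IL2, 100 ng/mL interferon gamma (IFNg), 500 nM dexamethasone (Dex, a glucocorticoid), 500 nM doxorubicin (Dox, which damages DNA), DMSO or PBS for 6 h, with 2 libraries per group and 1 for Dox. In the pretreatment experiment GM12878 cells received 10 uM BRM014, an inhibitor of the ATPases SMARCA4 and SMARCA2 of the BAF chromatin remodelling complex, or DMSO 30 min before vehicle, 100 ng/mL IFNg or 500 nM Dex, and were taken after 1 h or 6 h of stimulus (12 groups of 2 libraries). HepG2 cells received 10 uM BRM014 or DMSO for 24 h, with 2 libraries each. The labels do not say whether replicates came from separate cultures, so p-values measure the spread between these libraries, which may be technical.

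Totals were 12.9 to 22.9 M counts in the 39 GM12878 libraries, and 9.79, 17.0, 19.9 and 3.06 M in HepG2 (DMSO replicates 1 and 2, BRM014 replicates 1 and 2). The 8 B cell markers each averaged above 1 CPM (counts scaled to library size) in GM12878, where 7 of 8 hepatocyte markers averaged below it, and all 8 hepatocyte markers averaged above 1 CPM in HepG2. With BRM014 the summed hepatocyte markers in HepG2 went from 35543 and 39528 CPM to 16029 and 18773 CPM, and the fibroblast markers from 8.92 and 11.1 to 81.6 and 88.2 CPM, with COL1A2 and DCN under 1 CPM. Their part in the HepG2 results was not tested. A gene is called where edgeR's quasi-likelihood test gave an adjusted p under 0.05 over all genes tested in that comparison. In bulk RNA a change in the share of cells in S phase and a change of mRNA per cell cannot be told apart.

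Promoters of 3 members are shown, since these genes carry the contrasts described below: MCM10 had the largest rise with BRM014 in GM12878 at 6 h averaged over 3 arms, RRM2 the largest rise in HepG2, and CDC6 the largest fall in HepG2. Each runs 5′ to 3′ on the plus strand from 250 bases before to 50 bases after a RefSeq start site (GRCh38.p14), at chr10:13161308-13161607, chr2:10122489-10122788 (1 of 2 RRM2 starts in the table) and chr17:40287629-40287928. Capitals mark matches to CCAAT (or ATTGG, its reverse complement) and, in CDC6, TTTGGCGC, one of the E2F letters.
MCM10: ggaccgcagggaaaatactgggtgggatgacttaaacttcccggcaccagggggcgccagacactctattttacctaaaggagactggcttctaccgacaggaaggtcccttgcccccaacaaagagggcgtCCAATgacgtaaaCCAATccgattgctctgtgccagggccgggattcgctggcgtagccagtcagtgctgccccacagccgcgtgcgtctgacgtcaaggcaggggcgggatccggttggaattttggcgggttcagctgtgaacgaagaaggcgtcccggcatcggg
RRM2: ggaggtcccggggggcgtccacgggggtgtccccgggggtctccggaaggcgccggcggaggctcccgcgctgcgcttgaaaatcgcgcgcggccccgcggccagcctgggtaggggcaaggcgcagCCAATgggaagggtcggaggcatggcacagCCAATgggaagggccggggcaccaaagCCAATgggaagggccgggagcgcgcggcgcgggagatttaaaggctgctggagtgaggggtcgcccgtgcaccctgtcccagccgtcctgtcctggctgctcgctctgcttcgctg
CDC6: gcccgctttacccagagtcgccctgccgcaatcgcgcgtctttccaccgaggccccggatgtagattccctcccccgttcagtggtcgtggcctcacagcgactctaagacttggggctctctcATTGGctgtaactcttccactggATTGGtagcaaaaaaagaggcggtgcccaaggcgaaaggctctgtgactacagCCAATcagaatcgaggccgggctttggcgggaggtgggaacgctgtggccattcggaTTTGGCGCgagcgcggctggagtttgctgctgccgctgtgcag

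The RefSeq table held 41 promoters of 32 members, and E2F8, CCNE2, MCM4 and MCM5 had no entry. E2F letters (TTTCCCGC, TTTGGCGC, TTTCGCGC or TTTGCCGC, either strand) stood in 19 of the 41 (46.3%), against 3.31% of all 35116 promoters of the same length and 4.64% of the 17374 promoters of genes tested. MCM6 held 4 matches in its window, and E2F1, MCM2, MCM3 and MCM7 held 2 each. CCAAT, on either strand, stood in 58.5% of member promoters against 34.6% of all. TTTGAA or TTTAAA, the core of the CHR element known from G2 and M phase genes, stood in 4 member promoters (9.76%). The shares were 24.0% of all promoters and 17.9% of those of genes tested. The promoter of CHAF1B, whose rise with BRM014 in GM12878 came next to that of MCM10, is not shown and held none of these letters. Member promoters were richer in G and C, with a median of 68% against 64.3% for genes tested. These are matches of letters, not measured sites. By response, 12 of the 18 genes with E2F letters and 12 of the 14 without were called higher with BRM014 at 6 h, and 9 of 18 and 6 of 14 were called lower in HepG2. With Dex in the panel 12 of 18 with the letters and 5 of 14 without were called higher. None of these splits was tested.

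Levels per transcript length were compared as deposited TPM, which divides counts by transcript length, in the 6 GM12878 vehicle libraries at 6 h. PCNA, the clamp, stood highest at 151 ± 18.2 TPM (SD, n = 6). TYMS (118 ± 17.7), MCM7 (116 ± 6.53) and MCM5 (112 ± 8.55 TPM) followed within each other's spread. E2F2 was lowest at 4.28 ± 0.513 TPM. E2F8, at 6.22 ± 0.906 TPM, and CCNE2, at 6.58 ± 1.83 TPM, came next and lay within each other's spread. In the 2 HepG2 DMSO libraries PCNA was again highest at 260 ± 17.0 TPM and E2F2 lowest at 1.70 ± 0.177 TPM, with RRM2 second at 157 ± 10.0 TPM. E2F1 lay mid-list in both lines, at 20.2 ± 1.63 TPM in GM12878 and 24.4 ± 1.51 TPM in HepG2. The MCM subunits were unequal, with MCM6 lowest of the ring at 35.1 ± 3.75 TPM in GM12878 and 13.8 ± 0.0141 TPM in HepG2, where it stood below E2F1. Over the 20 GM12878 groups the ratio of a member's highest to its lowest group mean ran from 1.25 (MCM5) to 2.69 (PCNA), with a median of 1.70. The Dox group, which is 1 library, was the highest for PCNA and the lowest for MCM5. It was also the lowest for other members, such as CDT1 and UHRF1, so these ratios rest on 1 library at that end. The 20 groups come from 2 experiments whose vehicle levels differed: both DMSO vehicle libraries of the pretreatment experiment at 6 h lay above all 4 panel vehicle libraries for 20 of 36 members.

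**Figure D1:**
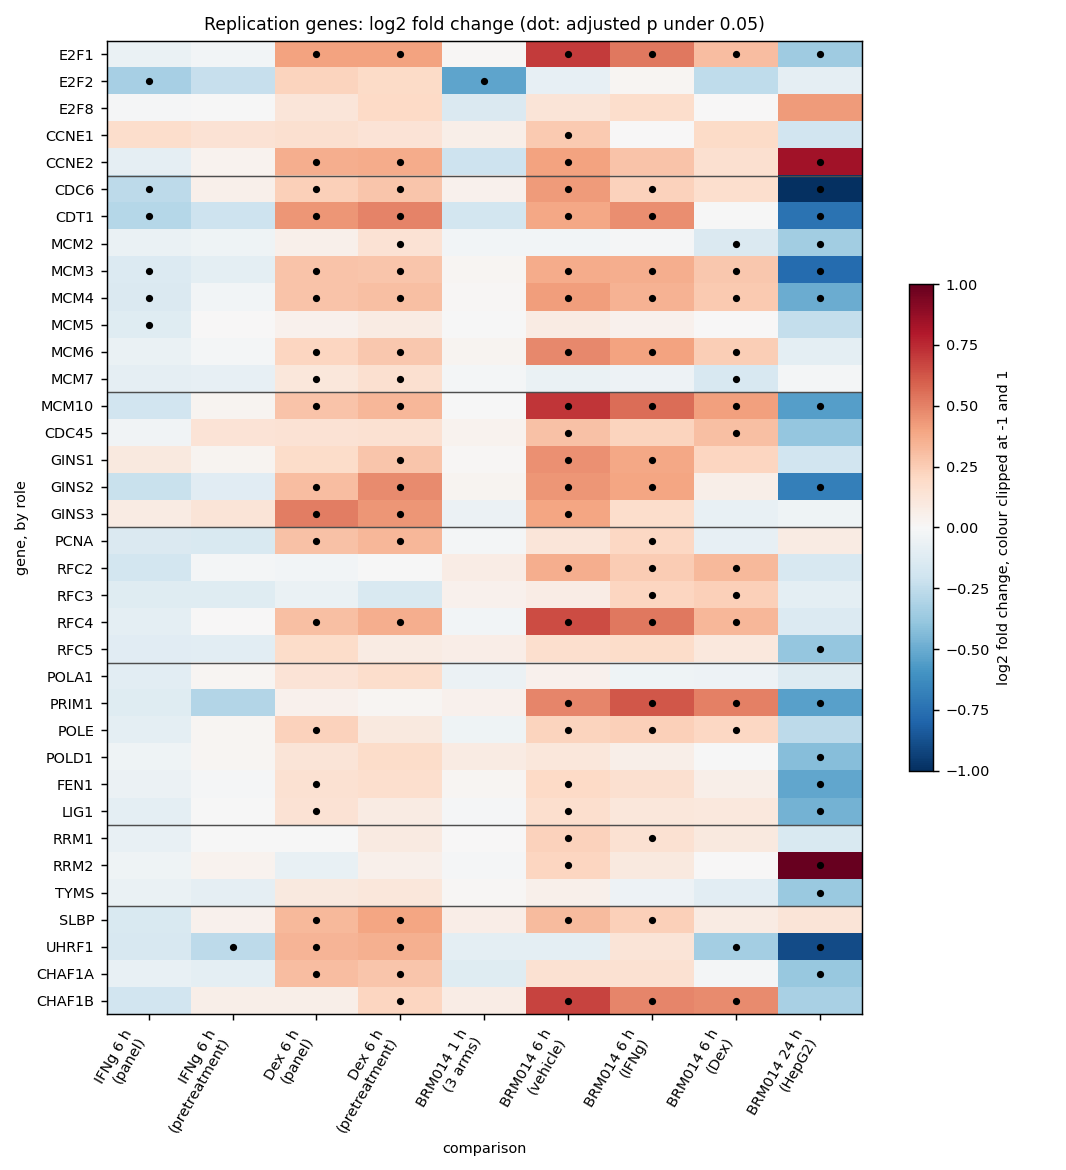
Log2 fold change of the 36 genes (rows, grouped by role) in 9 comparisons (columns), with colour clipped at -1 and 1 and a dot where the edgeR adjusted p was under 0.05. Red columns for BRM014 at 6 h in GM12878 and for Dex stand beside a mostly blue column for BRM014 in HepG2, where 16 genes were called lower and 2 higher.

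BRM014 raised replication genes in GM12878 by 6 h. Averaged over the vehicle, IFNg and Dex arms (6 against 6 libraries), 26 of 36 members were called higher and 2 lower, where 27.8% of all genes tested were called higher and 28.7% lower. The members' median log2 fold change was 0.17, against 0.01 over all genes. By role, the calls higher covered 5 of 5 helicase activation genes, 5 of 5 clamp and clamp loader genes, 5 of 8 licensing genes, 4 of 6 genes of synthesis and joining, 3 of 5 factors and cyclins, 2 of 3 deoxynucleotide genes and 2 of 4 chromatin replication genes. The 2 called lower were UHRF1, which brings DNMT1 to newly copied DNA, and MCM7, by 0.10 and 0.09 on the log2 scale. Both were fragile: UHRF1 was not called without BRM014 vehicle replicate 1 or BRM014 Dex replicate 1, nor MCM7 without BRM014 IFNg replicate 1. Of the 26 called higher, 21 kept the call under every alternative run, and CCNE1, GINS3, PCNA, RFC5 and RRM2 did not.

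MCM10 encodes a factor that helps the loaded helicase start unwinding. In the vehicle arm its level was 19.6 and 18.2 CPM with DMSO and 32.3 and 30.5 CPM with BRM014. In the IFNg arm it was 21.4 and 17.5 against 27.4 and 29.7 CPM, and in the Dex arm 24.0 and 23.6 against 31.6 and 32.0 CPM. Every BRM014 library stood above every DMSO library, and the averaged rise was 1.48-fold (log2 0.56, SE 0.0567, edgeR adjusted p = 6.33e-10).

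E2F1, an activating E2F that drives the genes of S phase entry, stood at 40.1 and 39.9 CPM with DMSO and at 63.3 and 68.2 CPM with BRM014 in the vehicle arm. In the IFNg arm the values were 42.2 and 37.1 against 55.5 and 58.9 CPM. In the Dex arm they were 54.3 and 52.1 against 61.1 and 70.8 CPM. The groups did not overlap in any arm, and the averaged rise was 1.42-fold (log2 0.51, SE 0.0432, edgeR adjusted p = 1.45e-11).

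CHAF1B, a subunit of the chromatin assembly factor that places histones behind the fork, went from 30.5 and 28.7 to 46.8 and 49.2 CPM in the vehicle arm. RFC4, a clamp loader subunit, went from 29.2 and 29.4 to 46.6 and 46.7 CPM, and PRIM1, the catalytic subunit of primase, from 17.2 and 15.0 to 23.2 and 22.4 CPM. All 3 rose in every arm without overlap between the groups. Averaged over the arms, CHAF1B rose 1.46-fold (log2 0.55, edgeR adjusted p = 1.84e-12), PRIM1 1.45-fold (0.54, adjusted p = 1.4e-09) and RFC4 1.42-fold (0.50, adjusted p = 1.26e-10). PRIM1 shares 10.9% of its exon bases with another annotated gene on the same strand, so its reads are uncertain to that extent.

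Within the MCM ring the subunits were unequal. MCM6 rose 1.30-fold, MCM4 1.27-fold and MCM3 1.26-fold over the 3 arms (edgeR adjusted p = 4.2e-11, 3.04e-11 and 9.85e-11). MCM2 and MCM5 were not called, and MCM7 was called slightly lower. In the vehicle arm MCM6 was at 109 and 111 CPM with DMSO against 149 and 163 CPM with BRM014, while MCM5 was at 279 and 260 against 280 and 300 CPM. The ring is built from 1 copy of each subunit, but its mRNAs did not move as one. For MCM2 and MCM7, genes on the opposite strand cover 23.6% and 7.90% of exon bases, and the labels do not say if reads were assigned by strand. The loading factors CDC6 and CDT1 both rose 1.21-fold. In the supply of deoxynucleotides, RRM1 and RRM2, the subunits of ribonucleotide reductase, rose by 0.16 and 0.11 on the log2 scale (RRM2 from 156 and 152 to 186 and 177 CPM in the vehicle arm), and TYMS, which makes thymidylate, was not called.

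Taken singly, the arms gave 23 members called higher and 0 lower with vehicle (18.4% and 20.1% of all genes). They gave 18 and 0 with IFNg (15% and 18.7%) and 12 and 3 with Dex (17.1% and 20.6%). The arms share no library. Called higher in all 3 were 10 members: E2F1, MCM3, MCM4, MCM6, MCM10, RFC2, RFC4, PRIM1, POLE and CHAF1B. The share of all genes called higher in all 3 was not counted. POLE lost its call in each arm without some library: DMSO replicate 1 or BRM014 replicate 2 with vehicle, BRM014 replicate 1 with IFNg, and replicate 2 of either with Dex. RFC2 lost its call in the IFNg arm without BRM014 replicate 2. The 3 called lower in the Dex arm were UHRF1 by 0.34, MCM7 by 0.16 and MCM2 by 0.15 on the log2 scale. MCM7 and MCM2 were not called there without DMSO replicate 1 or BRM014 replicate 1, E2F1 not without BRM014 replicate 2, and RFC4 not without DMSO replicate 1. UHRF1 went in the Dex arm from 104 and 106 to 79.0 and 88.0 CPM, without overlap. In the vehicle arm its groups also did not overlap (82.8 and 80.4 against 74.8 and 79.7 CPM), but the difference was not called (log2 -0.10, adjusted p = 0.19).

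**Figure D2:**
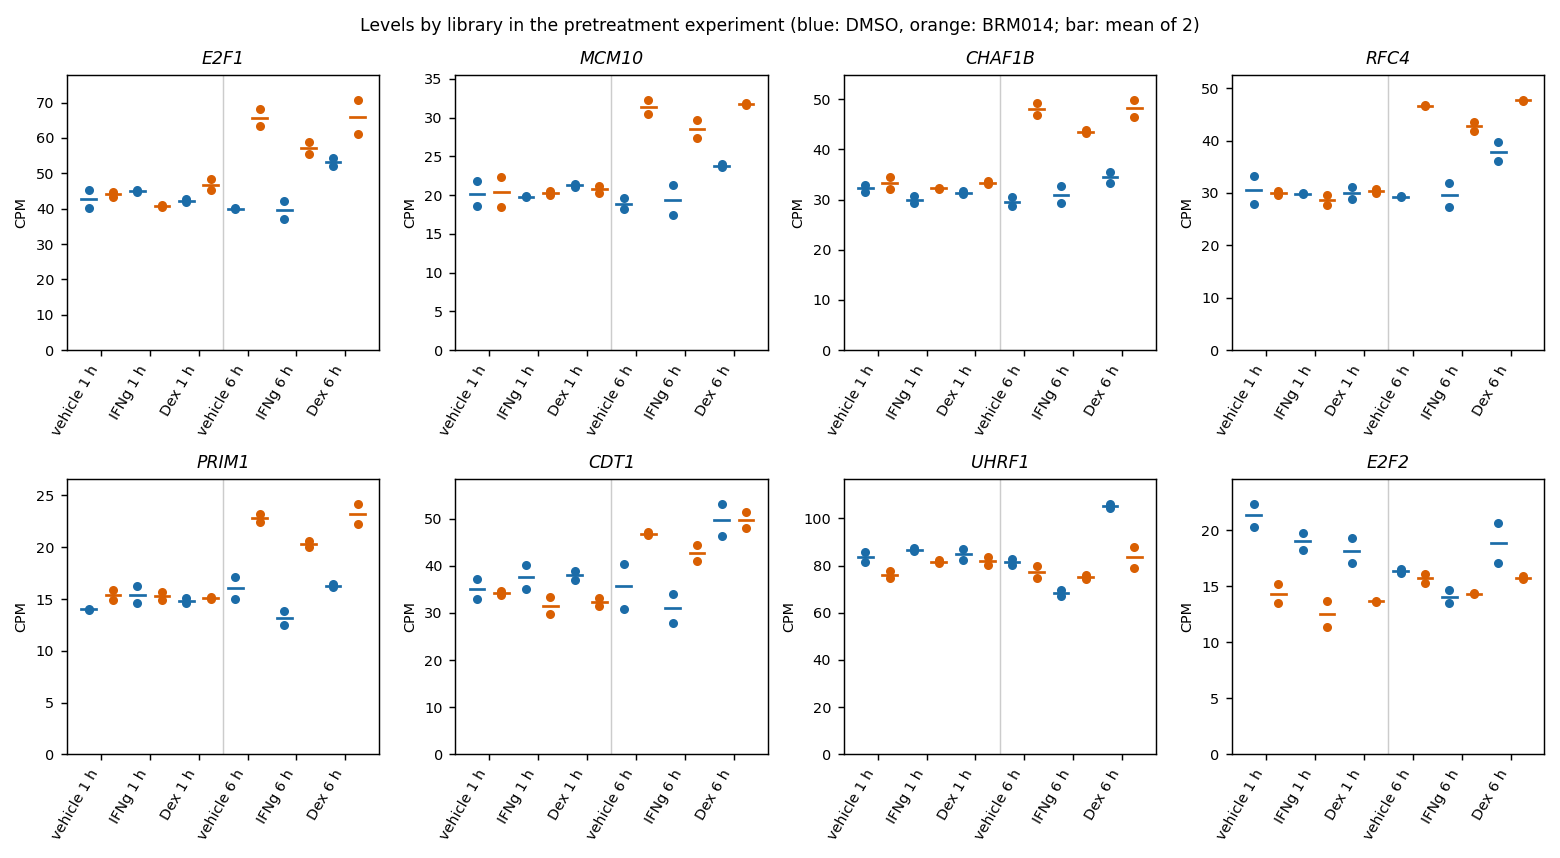
CPM (y axis, from 0) of 8 members in each library of the pretreatment experiment, with DMSO in blue, BRM014 in orange and bars at the mean of 2 libraries, at 1 h (left of the line) and 6 h (right). For E2F1, MCM10, CHAF1B, RFC4 and PRIM1 the colours separate in all 3 arms at 6 h, where MCM10 with BRM014 lies between 27.4 and 32.3 CPM, and E2F2 separates in all 3 arms at 1 h.

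The rise was not seen at 1 h. After 1 h of stimulus, which followed 30 min of BRM014 alone, 0 members were called higher and 1 lower over the 3 arms, where 2.56% and 4.43% of all genes were. The difference between the 6 h and the 1 h response was itself tested, and it was called positive for 23 members and negative for 0 (17.2% and 21% of all genes). GINS3, LIG1, E2F8, SLBP and CDC45 lost that call under some alternative runs. MCM10 differed by 0.56, RFC4 by 0.53, E2F1 by 0.50 and CCNE2, a cyclin E, by 0.49 on the log2 scale. At 1 h MCM10 stood at 21.8 and 18.6 CPM with DMSO and 22.3 and 18.4 CPM with BRM014 in the vehicle arm, and the groups overlapped. For time alone, vehicle cells at 6 h against 1 h gave 0 called members, where 1.43% of all genes were called in either direction. At a share this low, 0 calls do not set the members apart from other genes. An unadjusted p under 0.05 (edgeR) was found for 5 members and for 1986 of 15183 genes tested.

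E2F2 was the exception at 1 h. This activating E2F stood at 22.3 and 20.3 CPM with DMSO and 15.2 and 13.5 CPM with BRM014 in the vehicle arm. It was at 19.8 and 18.2 against 11.4 and 13.7 CPM with IFNg, and at 19.3 and 17.0 against 13.6 and 13.7 CPM with Dex. All 6 BRM014 libraries lay below all 6 DMSO libraries, and over the 3 arms E2F2 fell by 0.53 on the log2 scale (SE 0.0639, edgeR adjusted p = 3.39e-07). It was also called in each arm alone, where 1.46% (vehicle), 1.58% (IFNg) and 1.33% (Dex) of all genes were called lower. Those single-arm calls were each lost without some library: without DMSO vehicle replicate 1 or BRM014 vehicle replicate 2, without BRM014 IFNg replicate 1, and without any of the 4 Dex arm libraries. The averaged call was kept throughout. At 6 h the difference was no longer called (16.6 and 16.1 against 15.3 and 16.1 CPM with vehicle; over the 3 arms log2 -0.10, adjusted p = 0.176), and its change from 1 h to 6 h was 0.43 (adjusted p = 0.000363).

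The neighbouring lists were read in the same fit, and were chosen with earlier results of these data known. Of 44 other replication genes, 26 were called higher and 3 lower with BRM014 at 6 h over the 3 arms (median log2 0.16). Those with the smallest adjusted p were the origin-firing kinase CDC7 (log2 0.75, edgeR adjusted p = 8.4e-14), the polymerase delta subunit POLD3 (0.57), DTL, which targets CDT1 for destruction (0.54), and the polymerase alpha subunit POLA2 (0.51). Genes of G2 and M phase did not share this: 7 of 30 were called higher and 5 lower, with a median of 0.02. Among 29 regulators of the step from G1 to S, 7 were called higher and 14 lower. The kinase inhibitor CDKN1A (p21) fell by 0.85 at 1 h and by 1.29 at 6 h on the log2 scale, and MDM2, like it a p53 target, by 0.34 and 0.37. At 6 h MYC fell by 1.07, and of the D-type cyclins CCND3 fell by 0.83, CCND2 by 0.18 and CCND1, a rare transcript here, from a mean of 1.12 to 0.259 CPM. So the mRNAs of replication enzymes were higher at 6 h in the same libraries in which those of MYC and the D-type cyclins were lower, and CDKN1A was already lower at 1 h. B cell markers moved in these libraries too, with 6 of 8 called lower and a median of -0.55, and their part in the result was not tested. The targets of BRM014, SMARCA4 and SMARCA2, moved by 0.29 and -0.58 at 6 h. BRM014 acts on enzyme activity, so these mRNAs do not check the treatment.

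Dex also raised replication genes at 6 h, in both GM12878 experiments, which share no library. In the panel 19 of 36 members were called higher and 0 lower (13% and 12.7% of all genes), with a median log2 fold change of 0.19. In DMSO cells of the pretreatment experiment 19 were again called higher and 0 lower (8.06% and 7.53% of all genes), with a median of 0.19. The 2 lists shared 16 members: E2F1, CCNE2, CDC6, CDT1, MCM3, MCM4, MCM6, MCM7, MCM10, GINS2, GINS3, PCNA, RFC4, SLBP, UHRF1 and CHAF1A. These were 6 of 8 licensing genes, 3 of 5 helicase activation genes, 3 of 4 chromatin replication genes, 2 of 5 clamp genes and 2 of 5 factors and cyclins. No gene of synthesis and joining and no deoxynucleotide gene was called in both. The share of all genes called higher in both experiments was not counted. At 1 h of Dex 0 members were called, where 0.606% of all genes were called in either direction.

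CDT1, the licensing factor that brings MCM rings to origins, had 33.9, 37.2, 37.0 and 33.4 CPM in the 4 panel vehicle libraries and 50.3 and 45.8 CPM with Dex. In the pretreatment experiment it had 40.4 and 30.8 CPM with vehicle and 53.1 and 46.3 CPM with Dex. The groups did not overlap in either experiment, and the rises were 1.35-fold (edgeR adjusted p = 1.06e-05) and 1.41-fold (adjusted p = 0.00127), the second not called without DMSO vehicle replicate 2 or DMSO Dex replicate 1. E2F1 went from 40.3, 35.6, 36.4 and 36.1 to 49.9 and 48.4 CPM in the panel and from 40.1 and 39.9 to 54.3 and 52.1 CPM in the pretreatment experiment, a rise of 1.32-fold in each (adjusted p = 4.03e-06 and 0.000152). PCNA went from 141, 142, 117 and 136 to 155 and 174 CPM and from 154 and 154 to 204 and 187 CPM, a rise of 1.22-fold and 1.26-fold. SLBP, which binds the stem-loop of histone mRNAs, rose 1.26-fold and 1.32-fold, and UHRF1 1.26-fold and 1.28-fold. By contrast PRIM1 was at 17.2 and 15.0 CPM with vehicle and 16.2 and 16.4 CPM with Dex in the pretreatment experiment, and RRM2 at 156 and 152 against 168 and 151 CPM. Both overlapped and neither was called in either experiment. GINS3 rose most in the panel, at 1.42-fold, but a gene on the opposite strand covers 10.9% of its exon bases. Without DMSO vehicle replicate 2, DMSO Dex replicate 1 or DMSO Dex replicate 2 the pretreatment count went from 19 to 11, 11 and 10, all higher. E2F1, MCM3, MCM4, MCM6, PCNA, SLBP and UHRF1 kept their calls in both experiments under every alternative run.

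**Figure D3:**
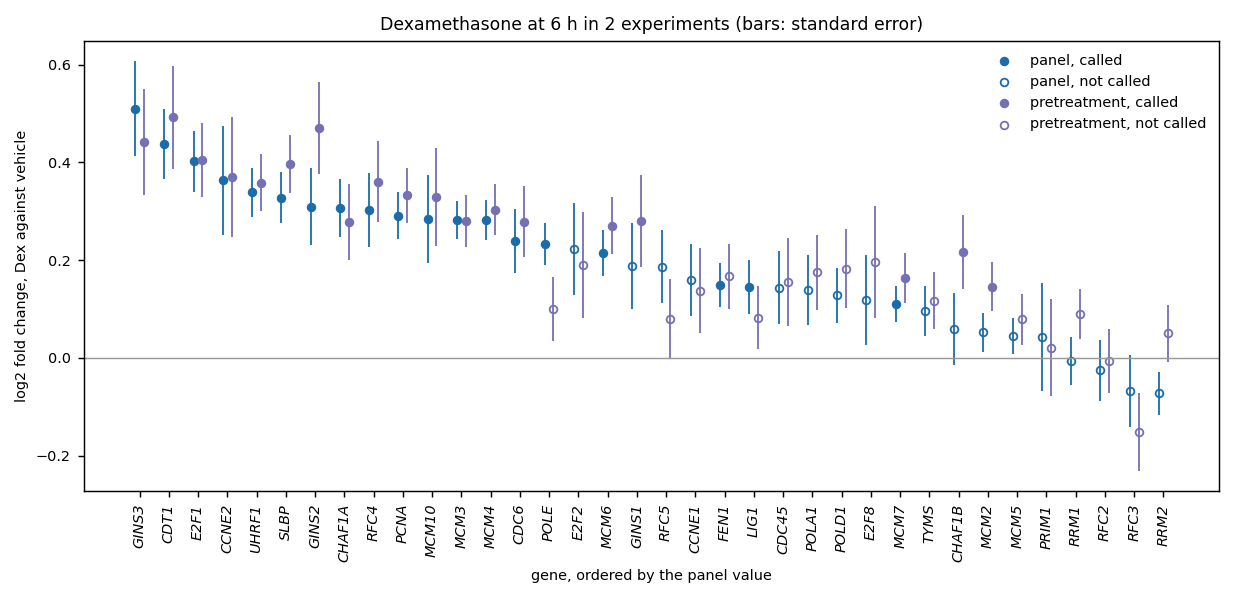
Log2 fold change of Dex against vehicle at 6 h (y axis) for the 36 genes, ordered by the panel value, in the panel (blue) and the pretreatment experiment (purple), with standard errors as bars and filled points for called genes. Both series lie mostly above 0 and the 16 genes filled in both include CDT1, E2F1 and UHRF1.

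Beside this, 14 of 44 other replication genes were called higher and 3 lower with Dex in the panel, and 10 and 0 in the pretreatment experiment, led in both by DTL (log2 0.51 and 0.61). G2 and M phase genes gave 2 higher and 3 lower of 30 in the panel. Among the G1 regulators MYC rose by 0.59 and 0.64 and CCND3, a D-type cyclin, by 1.02 and 0.89, while CDKN1A fell by 0.50 and 0.55 (edgeR). CCND1 fell from 1.87 to 0.681 CPM and from 1.60 to 0.528 CPM. CCND2 rose by 0.33 in the panel, and its 0.35 in the pretreatment experiment was not called. MDM2 was called in the pretreatment experiment alone, at 0.17.

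The Dex effect was also compared between BRM014 and DMSO cells. E2F1 stood at 63.3 and 68.2 CPM with BRM014 and at 61.1 and 70.8 CPM with BRM014 and Dex, and MCM10 at 32.3 and 30.5 against 31.6 and 32.0 CPM. CDT1 was at 47.2 and 46.4 against 48.0 and 51.5 CPM, MCM3 at 272 and 287 against 314 and 317 CPM, and RRM2 at 186 and 177 against 165 and 157 CPM. The groups overlapped for E2F1 and MCM10. They did not for CDT1 and MCM3, which were higher with Dex, nor for RRM2, which was lower, and Dex within BRM014 cells was not tested. The test of the difference in the Dex effect between BRM014 and DMSO cells at 6 h called 1 member, E2F1, lower by 0.39 on the log2 scale (SE 0.104, edgeR adjusted p = 0.0324), where 1.72% of all genes were called lower and 1.04% higher. The call was lost with DESeq2 and when any of 6 libraries was left out: DMSO vehicle replicate 1 or 2, DMSO Dex replicate 1 or 2, BRM014 vehicle replicate 2 or BRM014 Dex replicate 1. Of the other members, 12 had an unadjusted p under 0.05 (edgeR), where 1755 of 15183 genes tested did. All 12 were negative, among them GINS3 (log2 -0.47, adjusted p = 0.105), CDT1 (-0.39, 0.214) and GINS2 (-0.38, 0.139). Read beside them, DTL differed by -0.48 (adjusted p = 0.00835) and CCND3 by -0.98.

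IFNg gave few calls, all lower. In the panel 6 members were called lower and 0 higher at 6 h (4.75% and 7.11% of all genes): E2F2 by 0.33, CDT1 by 0.28, CDC6 by 0.26, MCM3 and MCM4 by 0.14 each, and MCM5 by 0.12 on the log2 scale. Below 0 were 33 of 36 members, where the median over all genes was -0.008. CDC6 went from 37.8, 37.4, 34.2 and 34.1 CPM to 29.5 and 30.2 CPM, without overlap (edgeR adjusted p = 0.0096). These calls were fragile: 0 of 36 were made without IFNg replicate 2, 2 without DMSO replicate 2, and 1 with DESeq2. In the pretreatment experiment none of the 6 was called, and 21 of 36 members were below 0, with a median of -0.01 against -0.004 over all genes. UHRF1 alone was called lower there and no member higher (3.15% and 3.47% of all genes). It went from 82.8 and 80.4 to 67.0 and 69.5 CPM (log2 -0.26, adjusted p = 0.0044), a call lost without DMSO IFNg replicate 1, while 2 members were called without DMSO vehicle replicate 2. No member was called at 1 h, where 0.514% of all genes were called in either direction. The difference in the IFNg effect between BRM014 and DMSO cells at 6 h called 0 members (0.198% of all genes). With edgeR 2 members had an unadjusted p under 0.05, where 1219 of 15183 genes tested did. Among the regulators CCND2 rose by 0.65 and 0.50 and CDKN1A by 0.35 and 0.25 in the 2 experiments.

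With TNF, LPS and IL2 no replication gene passed the test. With edgeR each gave 0 called members, where 0.019%, 0% and 0.203% of all genes were called. An unadjusted p under 0.05 (edgeR) was found for 2, 3 and 2 members, and for 792, 776 and 902 of 15775 genes tested. DESeq2 also called 0 in each. Below 0 were 27 members with TNF, 30 with LPS and 22 with IL2, with medians of -0.03, -0.07 and -0.01 on the log2 scale. Over all genes the medians were 3.48e-06, 5.59e-06 and -0.00141, and the share below 0 was not counted. Between the 2 vehicles, DMSO and PBS, 0 members were called (0.437% of all genes), a count that was not the same without PBS replicate 2. At shares this low, 0 calls do not set the members apart from other genes, here or with TNF, LPS and IL2. Between DMSO and PBS an unadjusted p under 0.05 (edgeR) was found for 6 members and for 1698 of 15775 genes tested. The 2 vehicle groups did not overlap for 13 members, and the share of all genes apart in this way was not counted.

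Doxorubicin has 1 library, so its values carry no replicate check and no test. PCNA, which is also a p53 target, was at 327 CPM against 117 to 142 CPM in the 4 vehicle libraries, a log2 ratio of 1.28 on the CPM plus 1 scale. TYMS was at 181 against 105 to 123 CPM (log2 ratio 0.63), but ENOSF1 on the opposite strand covers 39.9% of its exon bases. UHRF1 was at 42.6 against 68.4 to 74.9 CPM (-0.73), and CDT1 at 22 against 33.4 to 37.2 CPM (-0.66). These 4 were the members past 1.5-fold, 2 higher and 2 lower, where 1.5% and 1.55% of all genes were. Outside the range of the vehicle libraries were 25 of 36 members, against 56.2% of all genes. A ratio below 0 was found for 27 members, with a median of -0.13, and for 50.7% of all genes, with a median of -0.003.

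Other lists were farther from vehicle in that library. Of 16 p53 targets 15 were past 1.5-fold higher, with CDKN1A at 888 CPM against 281 to 309 CPM, and of 30 G2 and M phase genes 18 were past 1.5-fold lower (median log2 ratio -0.66). Of 44 other replication genes 2 were past it, both lower. MYC was at 25.3 against 51.7 to 63.7 CPM. E2F1 stayed within the vehicle range at 37.0 CPM, as did CDC6 at 35.6 CPM.

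**Figure D4:**
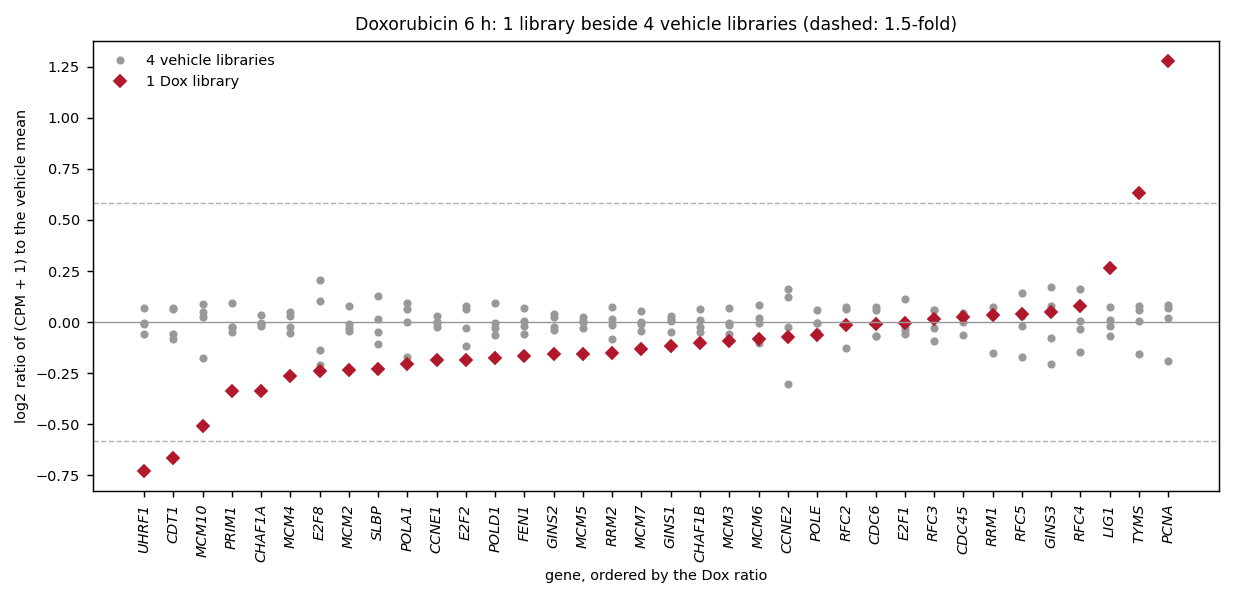
Log2 ratio of CPM plus 1 over its vehicle mean (y axis) for the 36 genes, ordered by the Dox ratio, with vehicle libraries in grey, the single Dox library as red diamonds and dashed lines at 1.5-fold. PCNA at 1.28 and TYMS at 0.63 lie above the upper line, and UHRF1 and CDT1 below the lower one.

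In HepG2 BRM014 lowered replication genes. After 24 h, 16 of 36 members were called lower and 2 higher (22.7% and 19.3% of all genes), and the median log2 fold change was -0.29 against -0.01 over all genes. The calls lower covered 5 of 8 licensing genes and 4 of 6 genes of synthesis and joining, but 1 of 5 clamp genes (RFC5) and 2 of 5 helicase activation genes (GINS2 and MCM10). UHRF1 and CHAF1A, E2F1 and TYMS were the others.

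CDC6, which recruits the MCM ring, had 47.9 and 51.6 CPM with DMSO and 25.2 and 17.5 CPM with BRM014. That was the largest fall, to 0.472 of the DMSO level (log2 -1.08, SE 0.137, edgeR adjusted p = 7.9e-06). UHRF1 went from 76.4 and 76.9 to 39.2 and 40.5 CPM (log2 -0.90, SE 0.114, adjusted p = 8.06e-06). MCM3 went from 219 and 224 to 132 and 114 CPM (log2 -0.77), and CDT1 from 70.3 and 68.1 to 38.5 and 42.5 CPM (log2 -0.74). In all 4 the groups were far apart relative to the gap between replicates. LIG1 and FEN1, which seal and trim Okazaki fragments, fell by 0.47 and 0.52, FEN1 from 60.3 and 62.9 to 39.8 and 44.3 CPM. GINS2, a helicase subunit, fell from 34.7 and 32.8 to 18.6 and 23.9 CPM, and E2F1 from 47.2 and 42.2 to 32.5 and 35.5 CPM (log2 -0.35, adjusted p = 0.0451). MCM6 (log2 -0.10, adjusted p = 0.597), MCM7 (-0.02, 0.9) and PCNA (0.08, 0.459) were not called.

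RRM2 went the other way. The small subunit of ribonucleotide reductase, which makes deoxynucleotides, stood at 209 and 233 CPM with DMSO and at 1012 and 891 CPM with BRM014, a rise of 4.53-fold (log2 2.18, SE 0.0876, edgeR adjusted p = 7.49e-12). Its partner RRM1 was at 71.2 and 82.0 against 68.5 and 62.9 CPM and was not called (adjusted p = 0.271). CCNE2 was called higher as well, from 3.78 and 3.66 to 7.30 and 4.37 CPM (log2 0.84, adjusted p = 0.0182). Its 2 BRM014 libraries lay far apart, INTS8 on the opposite strand covers 37.0% of its exon bases, and the call was lost without BRM014 replicate 1 or DMSO replicate 2.

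BRM014 replicate 2 was the shallowest library, at 3.06 M counts. Without it 2 members were called higher and 14 lower. Without BRM014 replicate 1, which leaves that shallow library alone in its group and assumes that it varies like the DMSO libraries, the counts were 1 and 8. DESeq2 gave 1 and 10. Kept under every alternative run were RRM2, higher, and CDC6, CDT1, MCM3, MCM4, TYMS and UHRF1, lower. RFC5 lost its call without any 1 library, and MCM2, MCM10, PRIM1 and CHAF1A theirs without DMSO replicate 2. Calls were also lost for MCM2, POLD1, GINS2, FEN1 and LIG1 without BRM014 replicate 1. For E2F1 the call was lost without DMSO replicate 1 or BRM014 replicate 1.

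**Figure D5:**
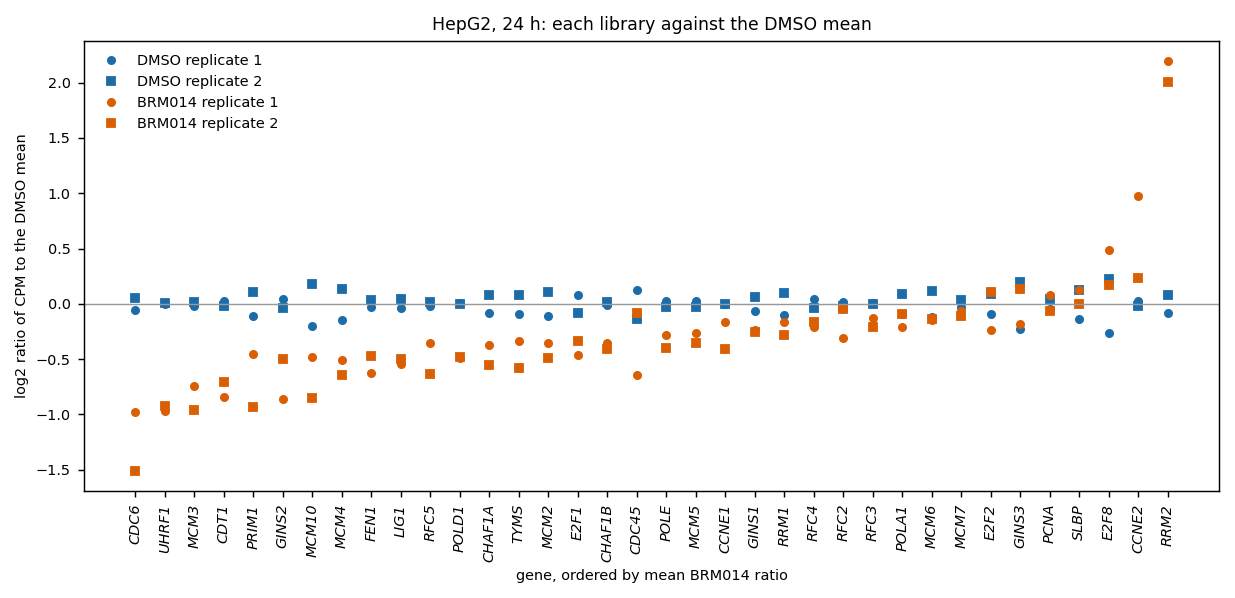
Log2 ratio of CPM to the DMSO mean (y axis) in each of the 4 HepG2 libraries (blue DMSO, orange BRM014, circles replicate 1, squares replicate 2) for the 36 genes, ordered by the mean BRM014 ratio. CDC6 stands lowest and RRM2 highest, and RRM2 in both BRM014 libraries (1012 and 891 CPM) is far above its DMSO values.

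In the same HepG2 fit 14 of 44 other replication genes were called lower and 6 higher (median log2 -0.08), among them the histone chaperone ASF1B (log2 -1.04) and the thymidine kinase TK1 (-0.95). TOPBP1 was higher by 0.83, as were CDC7 by 1.06 and the polymerase epsilon subunit POLE2 by 0.94, named here after their values were seen. G2 and M phase genes were called lower for 16 of 30 and higher for 1 (median -0.27). CDKN1A (0.03), MDM2 (-0.17), CCND1 (0.08) and CCND3 (-0.05) were not called, and MYC rose by 0.42. CCND2 was called lower from 0.849 to 0.0497 CPM, near nothing in both groups. The medians of members and of G2 and M phase genes were both below 0 in HepG2, while in GM12878 at 6 h the median of members was above 0 and that of G2 and M phase genes near it.

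Set side by side, 10 members were called lower in HepG2 and higher in the GM12878 vehicle arm at 6 h: E2F1, CDC6, CDT1, MCM3, MCM4, MCM10, GINS2, PRIM1, FEN1 and LIG1. Of all genes tested in both fits, 2.26% were called in that way. In the vehicle arm the call of LIG1 was lost without any 1 of its 4 libraries, that of FEN1 without either DMSO library or BRM014 replicate 2, and that of CDT1 without DMSO replicate 2. CDC6 was the widest apart, at -1.08 in HepG2 and 0.42 in GM12878 on the log2 scale. RRM2 was called higher in both, at 2.18 and 0.22. Both lines received 10 uM BRM014, but they differed in time (24 h against 6 h), in the vehicle added after BRM014 and in experiment, so line and time cannot be told apart and the difference between the fits was not tested.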

How the data were processed

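Poly(A) RNA libraries of GM12878 (39, in 20 groups) and HepG2 (4, in 2 groups) were mapped to hg38 and quantified with STAR and RSEM, per the submitters' processing notes, and the versions and annotation release are not given in the sources used here. The deposited files hold RSEM expected counts per gene, of which 2.48 to 4.74% were not whole, and TPM values that the authors computed per transcript length. Expected counts were rounded to whole numbers. Identifiers other than the 58780 Ensembl genes (746 per file) held 0 counts and were left out.

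One edgeR (4.0.16, R 4.3.3) quasi-likelihood fit with TMM scaling and filterByExpr was made per experiment: 15 panel libraries (15775 genes tested), 24 pretreatment libraries (15183) and 4 HepG2 libraries (13350). P-values were adjusted by Benjamini-Hochberg over all genes tested. Standard errors were the log2 fold change divided by the square root of F. The control of a panel stimulus was the average of both vehicle groups, since the labels do not give the vehicle of each stimulus. CPM values use 1 TMM scaling over all 43 libraries. Dox was compared as log2 of CPM plus 1, with a 1.5-fold threshold. TPM served only for levels between genes.

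Alternatives were DESeq2 (1.42.0), DESeq2 size factors, no filter, a replicate block, the compared groups alone, each vehicle group alone, other Dox settings, and each library left out. Same-numbered replicates did not deviate together (correlations -0.069 to 0.083 over 66 pairs of groups in the pretreatment experiment), so replicate numbers were not taken as pairs. The code was tested on simulated data. The members and lists were chosen with earlier results of these data known. Values per library were given for up to 8 called members of largest change per comparison, at least 1 per role, and up to 4 called genes of smallest adjusted p from each further list, besides CDKN1A, MDM2, MYC and the D-type cyclins. Promoter sequences came from RefSeq (GRCh38.p14). Overlapping exons were read from GENCODE. The result of 1 listed gene that is no member is not reported here.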

Additional observations from a re-analysis of the deposited data

Results flagged for a closer look

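For 23 members the BRM014 response at 6 h differed from that at 1 h by the test of the difference itself (edgeR, mean of 3 arms, 6 h minus 1 h on the log2 scale). Of 29 alternative runs the call was lost in 18 for GINS3, 16 for LIG1, 14 for E2F8, 4 for SLBP and 1 for CDC45. Among factors and cyclins the difference was 0.50 for E2F1, 0.43 for E2F2, 0.25 for E2F8 and 0.49 for CCNE2. Among licensing genes it was 0.23 for CDC6, 0.46 for CDT1, 0.31 for MCM3, 0.33 for MCM4 and 0.35 for MCM6. Helicase activation genes gave 0.56 for MCM10, 0.24 for CDC45, 0.34 for GINS1, 0.27 for GINS2 and 0.23 for GINS3. RFC2 differed by 0.24 and RFC4 by 0.53, PRIM1 by 0.49, POLE by 0.27, LIG1 by 0.14 and RRM1 by 0.16. In chromatin replication the values were 0.15 for SLBP, 0.22 for CHAF1A and 0.47 for CHAF1B. For E2F2 the positive difference follows a fall at 1 h, not a rise at 6 h. E2F8 and CHAF1A were not called higher at 6 h over the 3 arms either, nor called lower at 1 h.

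The Dex response of E2F1 at 6 h differed between BRM014 and DMSO cells by -0.39 in the same kind of test, with the losses of that call given above.

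With BRM014, 10 members were called lower in HepG2 and higher in the GM12878 vehicle arm at 6 h. By overlap of libraries alone, called or not, 23 members were apart in both lines in opposite directions. The share of all genes apart in this way was not counted, so how unusual that number is cannot be told. Groups without BRM014 or stimulus were apart for some members too: 13 members between DMSO and PBS in the panel, and 15 between vehicle cells at 6 h and 1 h. For these counts too the share of all genes was not counted. The HepG2 log2 fold changes were -1.08 for CDC6, -0.74 for CDT1, -0.35 for E2F1, -0.52 for FEN1, -0.68 for GINS2, -0.47 for LIG1, -0.55 for MCM10, -0.77 for MCM3, -0.50 for MCM4 and -0.54 for PRIM1. The difference between the lines was not tested.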

How the results depend on the processing

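Of 175 calls of single members over the comparisons, 98 were kept under every alternative run and 0 reversed direction. With DESeq2 the count of called members went from 6 to 1 for IFNg in the panel, from 1 to 0 for BRM014 at 1 h in Dex cells, from 1 to 0 for the difference in the Dex effect between BRM014 and DMSO cells, and from 18 to 11 in HepG2. When the fit held no other group, IFNg gave 2 in the panel and 0 at 6 h in the pretreatment experiment, and BRM014 at 1 h gave 0 in Dex cells and 2 over the 3 arms. PBS alone as control gave 2 for IFNg. Without the filter on low counts, BRM014 at 1 h over the 3 arms and the difference in the Dex effect each gave 2.

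Leaving out 1 library gave 0 to 8 called members for IFNg in the panel, 0 to 2 for IFNg at 6 h in the pretreatment experiment, 10 to 17 for Dex there, and 0 to 1 for DMSO against PBS. It gave 0 to 1 for BRM014 at 1 h with vehicle and with IFNg, 0 to 0 with Dex, and 1 to 2 over the 3 arms. It gave 0 to 1 for the difference in the Dex effect, 24 to 28 for BRM014 at 6 h over the 3 arms, and 9 to 16 in HepG2.

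With the replicate number as a block, BRM014 at 1 h over the 3 arms gave 2 members, IFNg in the panel 9 and HepG2 13, while Dex gave 19 in the panel and 18 in the pretreatment experiment. The numbers do not pair the samples, so these are alternatives only. Groups of 2 libraries, and the 3.06 M counts of 1 HepG2 library, limit the precision.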

Other observations

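The experiments differed in the level of these genes before any stimulus. Both DMSO vehicle libraries of the pretreatment experiment at 6 h lay above all 4 panel vehicle libraries for 20 of 36 members (55.6%) and below all 4 for 1 (2.78%), with a median log2 ratio of 0.12. Over 15042 genes tested in both experiments the shares were 17.4% and 18.7%, and the median was -0.01. Experiment and vehicle handling cannot be told apart. Each edgeR test above was made within an experiment, while the span of levels over all GM12878 groups was not.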
